A study of Mus musculus with 6 samples.

Results

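Isolated short peaks of H3K79me2 were small marked regions that stood alone in the genome of MN1-driven mouse leukaemia cells. They were chosen from the deposited peak list as peaks of the autosomes narrower than 5 kb with no other peak of the list within 100 kb on either side, the first and last peak of a chromosome being judged on their one neighbour. The rule found 276 such peaks among 18418 autosomal peaks, or 1.498% of them, and among 18992 peaks in all. They made up 2.85% of the 9696 short autosomal peaks, the other 9420 of which had a neighbour within 100 kb.

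H3K79me2 is dimethylation of lysine 79 in the core of histone H3. DOT1L is the enzyme known to place it, and the mark is known from other work to spread from the start of transcribed genes into their bodies, where its extent follows transcription. In leukaemias with rearranged MLL (Kmt2a), wide H3K79me2 over Hox genes and other stem cell genes has been linked to their continued expression, which is why the mark is usually studied through its broad domains. MN1 is a transcriptional co-regulator whose overexpression transforms myeloid progenitors of the mouse.

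The series held 3 libraries of chromatin precipitated with an Abcam antibody against H3K79me2 (ab3594) and 3 input libraries, which are chromatin sequenced without the antibody. All 6 came from blasts sorted out of the bone marrow of moribund C57BL/6 mice after transplantation of CMP cells that had been transformed with MN1. The cells carried Dot1l f/f, a conditional allele that had not been inactivated, so DOT1L was intact in both groups. The blasts had been kept briefly in M3234 medium with FBS, Il3, Il6 and SCF, and whether each library was made from another mouse is not in the labels.

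The deposited values were 1 list of peaks over the combined libraries. Each peak had 1 pooled pileup, 1 fold of H3K79me2 over the control background and 1 q-value from the peak caller, all of them the authors' values. Pileups and control backgrounds are in the peak caller's units, which may be scaled and so cannot be taken as read counts. There was no value per library and the read depth is unknown, so no spread between replicates can be given and no test between samples was run. Width and spacing come from the same peak calls as pileup, fold and q, so these values describe the chosen peaks and are not a test of them. Intervals are 95% intervals over peaks (rank-based for medians, Clopper-Pearson for shares), cover counting error only, and peaks are not independent replicates. Positions are in the mouse build mm9. A genome or gene annotation of that build was not used here, so genes were not assigned, sequences were not read, and the haematopoietic and other cell type markers could not be checked against the peaks.

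Most isolated short peaks carried weak H3K79me2, as did the typical peak of the whole list, and a minority was well marked. The median of their folds over the control background was 2.24 (2.11 to 2.44), the quartiles were 1.92 and 3.07, and the range was 1.34 to 10.9. Of the 276 peaks, 96 (34.8%) stayed under a fold of 2, 142 (51.4%) lay at 2 to under 4, and 38 (13.8%, 9.93% to 18.4%) reached a fold of 4 or more. Over all autosomal peaks 29.5% reached a fold of 4, and over the short ones 4.99% did. A fold under 2 was found in 34.8% of all autosomal peaks and in 61.7% of the short ones. The isolated short peaks therefore held more well marked regions than short peaks in general and fewer than the whole list.

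The weak isolated peaks were narrow and close to the limit of what was called. The 96 peaks with a fold under 2 had a median width of 0.973 kb and a median pileup of 21.5, the lowest pileup in the list being 19. Their −log10 q ran from 1.06 to 3.61 with a median of 1.58. The 142 peaks with a fold of 2 to under 4 had a median width of 2.52 kb, a median pileup of 31.01 and a median −log10 q of 5.55. The 38 that reached a fold of 4 were 2.03 to 4.96 kb wide, with a median of 4.01 kb. Their pileup ran from 46.4 to 134.9 and their −log10 q from 16.5 to 99.9. They lay on 16 of the 19 autosomes, with none on chromosomes 15, 16 and 17.

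The caller's q-value showed the same gradation, but it comes from the same calls as the fold and is not separate support. A −log10 q of at least 2 was reached by 200 of the 276 isolated short peaks (72.5%), against 69.7% of all autosomal peaks and 45.2% of the short ones. A value of at least 5 was reached by 113 (40.9%), against 45.1% of all and 15.3% of short autosomal peaks. A value of at least 10 was reached by 63 (22.8%), against 36.6% and 8.58%. At the 2 lower thresholds the isolated short peaks were near the whole list, and at the third they were below it.

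Wider peaks had higher folds within the isolated short peaks, as they did within the other short peaks. For the 71 peaks under 1 kb the median fold was 1.93, and none of them reached a fold of 4. The 61 peaks of 1 to 2 kb had a median fold of 2.01, again with none at a fold of 4. From 2 kb upwards the well marked ones appeared, with 8 of 54 at 2 to 3 kb, 11 of 45 at 3 to 4 kb and 19 of 45 at 4 to 5 kb. The median folds of these 3 classes were 2.72, 2.77 and 3.50. Spearman's rho between width and fold was 0.65 across the 276 peaks and 0.48 across the 9420 other short peaks. Both are given as a description because width and fold come from the same call and share its threshold. Wide peaks of low fold were also present, such as the 4.90 kb peak on chromosome 5 between 69726781 and 69731684, with a fold of 1.95 and a pileup of 22.1.

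**Figure D1:**
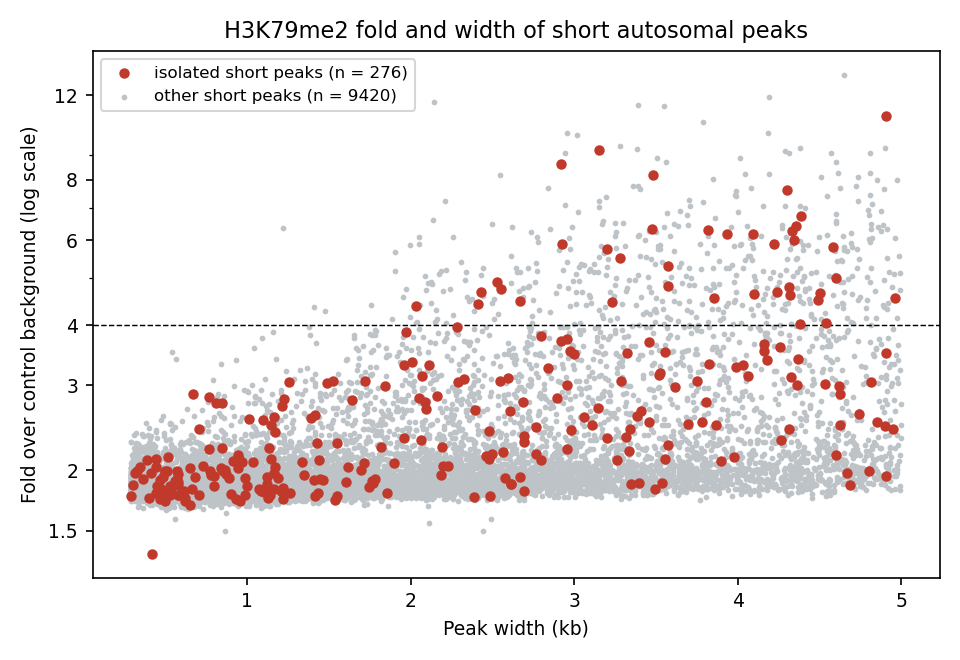
Fold over the control background (log axis) against peak width in kb, with 1 point per peak, for the 276 isolated short peaks in red and the 9420 other short autosomal peaks in grey. No isolated peak narrower than 2 kb lies above the dashed line at a fold of 4, and 38 wider ones do.

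The strongest isolated short peak lay on chromosome 1, between 72757818 and 72762725. Over 4.91 kb its pooled pileup was 134.9, its fold 10.9 and its −log10 q 99.9. Only 194 autosomal peaks of any width had a higher fold. The preceding peak of the list, 124.9 kb away between 72630014 and 72632937, was itself an isolated short peak with a fold of 5.90 and a pileup of 70.4. After the stronger of these neighbours no peak was called for 1239 kb, and before the weaker one none for 1014 kb. Both well marked short peaks thus stood as a pair in a stretch otherwise free of called H3K79me2.

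The second strongest, on chromosome 18 between 33954527 and 33957675, was 3.15 kb wide with a pileup of 115.1 and a fold of 9.24. Its gaps were 579.7 kb before and 422.1 kb after, wider on both sides than the 187.8 kb median distance of isolated short peaks to their nearest peak. It was one of only 3 isolated short peaks on that chromosome.

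Chromosome 13 carried the next pair by fold. The peak between 91062644 and 91065563 spanned 2.92 kb, and its pileup was 111.5, its fold 8.63 and its −log10 q 69.7. The peak between 86182962 and 86186443 spanned 3.48 kb, and its pileup was 100.03, its fold 8.18 and its −log10 q 64.6. The first had 817.04 kb free of peaks before it and 138.3 kb after it, and the second 753.04 kb before it and 3682 kb after it. These 4 were the isolated short peaks with a fold of at least 8, or 1.45% of them, against 6.69% of all autosomal peaks and 0.371% of the short ones.

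The fifth, on chromosome 12 between 33064479 and 33068781, reached a fold of 7.63 and a pileup of 95.7 over 4.30 kb. The sixth, on chromosome 11 between 100180114 and 100184500, reached a fold of 6.74 and sat in the tightest gap of the leading 10, with 126.5 kb before and 114.3 kb after. Its preceding neighbour, between 100053338 and 100053629, was the narrowest isolated peak of all, 292 bp wide with a fold of 1.77.

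The remaining 4 of the leading 10 had folds between 6.27 and 6.41. They lay on chromosome 4 between 24825224 and 24829576 (fold 6.41), chromosome 19 between 36158223 and 36161698 (fold 6.32), chromosome 7 between 72014018 and 72017833 (fold 6.298) and chromosome 3 between 53663388 and 53667720 (fold 6.27). Their pileups were 80.6, 77.2, 76.1 and 79.6 and their widths 4.35, 3.48, 3.82 and 4.33 kb, in the same order. The peak on chromosome 7 had nearly equal gaps of 469.1 and 470.9 kb, whereas the one on chromosome 19 had 927.6 kb before it and 138.1 kb after it. In all, 13 isolated short peaks reached a fold of 6, or 4.71%, against 15.9% of all autosomal peaks and 1.36% of the short ones. The 5 with the highest −log10 q were the same as the 5 with the highest fold.

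At the lower end, 1 isolated peak differed from all others in its control background. The peak on chromosome 15 between 74917041 and 74917461 was 421 bp wide and had the highest pileup of any isolated short peak, 195.9, with the lowest fold, 1.34. That fold was also the lowest of the whole list. The next 4 pileups in order were those of the 4 strongest peaks above, 100.03 to 134.9. The control background computed from its pileup and fold was 145.7, against a median of 11.2 and a next highest value of 18.2 among the isolated short peaks. A high H3K79me2 pileup there went with a high control background, and the reason was not tested.

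The other 4 of the 5 lowest folds lay between 1.69 and 1.73. They were on chromosome 3 between 115416483 and 115417132, chromosome 19 between 33295982 and 33296478, chromosome 13 between 102311327 and 102312286 and chromosome 4 between 95224609 and 95225228. Each was narrower than 1 kb, with a pileup of 19.2 to 24.3 and a −log10 q of 1.06 to 1.36. A list limited to a −log10 q of 2 or more would hold none of them.

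The control background under isolated short peaks lay above that under other short peaks, with medians of 11.15 (11.06 to 11.28) and 10.88 (10.86 to 10.89). It was near that of all autosomal peaks, whose median was 11.22 (11.21 to 11.24). The lowest value in the list, 10.52, was met to within 0.1 by 44 of 276 isolated short peaks (15.9%, 11.8% to 20.8%), against 30.1% of other short peaks (29.2% to 31.1%) and 16.4% of all autosomal peaks. At the other end, 30 isolated short peaks (10.9%, 7.45% to 15.2%) had a background at least 1.2 times the lowest. This compared with 5.93% (5.47% to 6.43%) of other short peaks and 6.18% of all autosomal peaks. None of the 38 that reached a fold of 4 sat at the lowest background, and 29.2% of those with a fold under 2 did. The part of the control in the fold of these peaks was not tested beyond leaving out the 30, after which the median fold was 2.22.

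In the whole list, isolated short peaks had higher folds than short peaks with a neighbour. Their median fold of 2.24 (2.11 to 2.44) compared with 1.93 (1.92 to 1.93) for the 9420 other short peaks, a difference of 0.309. In the list limited to a −log10 q of at least 5, with the gaps measured anew, the difference was 0.00896, and among the peaks of that q in the whole list it was −0.0907. A limit at 5 removed only short peaks with a fold under 4. The median pileup of isolated short peaks was 27.3 (25.9 to 28.9), against 22.3 (22.2 to 22.3). Their median width was 2.09 kb (1.75 to 2.48), against 1.63 kb (1.59 to 1.68). A fold of at least 4 was reached by 13.8% (9.93% to 18.4%), against 4.73% (4.31% to 5.18%) of other short peaks. None of these pairs of intervals overlapped in the whole list, but they cover counting error only and peaks are not independent replicates. Width, fold and pileup come from the same peak calls as the rule, so this is a description and not a test.

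A difference was also present between peaks of like width. When other short peaks were weighted to the width classes of the isolated ones, 6.52% of them had a fold of at least 4, against 13.8% of the isolated. Among peaks of 2 to 3 kb the median fold was 2.72 (2.31 to 3.07) for isolated and 1.99 (1.97 to 2.001) for other short peaks. Among those of 3 to 4 kb it was 2.77 (2.49 to 3.33) against 2.09 (2.06 to 2.14), and among those of 4 to 5 kb 3.50 (3.01 to 4.56) against 2.26 (2.19 to 2.31). Below 2 kb the classes were closer, with 1.93 (1.86 to 1.99) against 1.85 (1.84 to 1.86) under 1 kb and 2.01 (1.91 to 2.11) against 1.89 (1.88 to 1.90) at 1 to 2 kb. The shares at a fold of 4 had overlapping intervals in 3 of the 5 width classes. They were 0% of isolated and of other short peaks under 1 kb, 0% (0% to 5.87%) and 0.403% (0.201% to 0.720%) at 1 to 2 kb, and 24.4% (12.9% to 39.5%) and 13.5% (11.7% to 15.6%) at 3 to 4 kb.

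**Figure D2:**
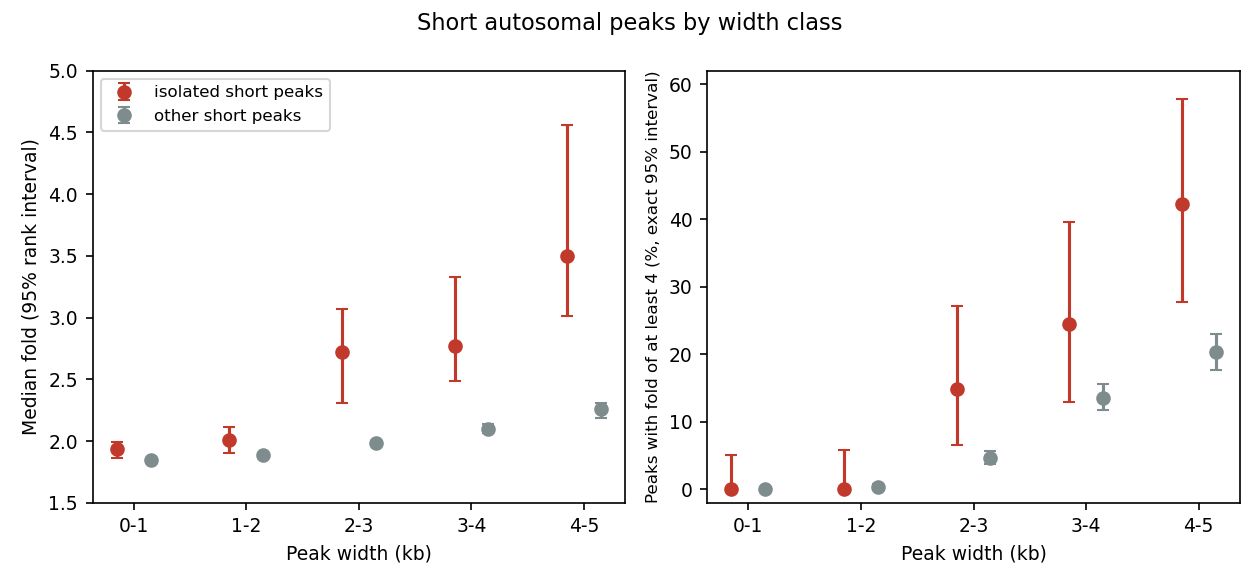
Median fold with its 95% rank interval (left) and percentage of peaks that reached a fold of 4 with its exact 95% interval (right) by width class in kb, for isolated short peaks in red and other short peaks in grey. The medians lie furthest apart at 4 to 5 kb, 3.50 against 2.26.

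Among calls with a −log10 q of at least 5 the folds lay close together, but at a threshold of 2 they did not. At 2, the median fold was 2.66 (2.49 to 2.85) for 200 isolated and 2.19 (2.18 to 2.21) for 4185 other short peaks. A fold of 4 was reached there by 19% (13.8% to 25.1%) and 10.7% (9.74% to 11.6%). Among peaks with a −log10 q of at least 5, the 113 isolated short peaks had a median fold of 3.31 (3.10 to 3.61) and the 1370 other short peaks 3.40 (3.32 to 3.48). At the threshold of 10 the values were 4.51 (3.87 to 4.74) for 63 isolated and 4.30 (4.14 to 4.42) for 769 other short peaks. The intervals overlap at the thresholds of 5 and 10. All 38 isolated and 446 other short peaks with a fold of at least 4 passed each threshold. A threshold thus removed only peaks of lower fold from both groups. The closeness of the medians after it therefore cannot show whether isolated and other short peaks differ. Calls with a −log10 q of at least 5 were 40.9% of isolated and 14.5% of other short peaks.

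The limit of 100 kb was not where the values changed. Short peaks whose nearest peak lay within 3 kb had a median fold of 1.91, and 1.97% of them reached a fold of 4. At 3 to 10 kb these values were 1.91 and 4.83%, at 10 to 30 kb 2.05 and 11.9%, and at 30 to 100 kb 2.19 and 13.6%. Beyond the limit, the median fold was 2.33 (2.13 to 2.54) at 100 to 200 kb, 2.11 (2.02 to 2.46) at 200 to 500 kb and 2.33 (1.93 to 3.14) above 500 kb. The interval at 30 to 100 kb, 2.15 to 2.29, overlapped each of them. The shares at a fold of 4 beyond the limit were 11.6%, 14.3% and 22.6%, the last from 7 of 31 peaks with an interval of 9.59% to 41.1%. Within the isolated short peaks, rho between the distance to the nearest peak and the fold was 0.0013 across 276 peaks, which share the same pooled libraries.

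Short peaks were also a smaller part of the isolated than of the clustered marking. Of the 719 autosomal peaks with no other peak within 100 kb, 38.4% were short, against 53.2% of those with a neighbour. By distance to the nearest peak the share of short peaks was 56.4% within 3 kb, 54.9% at 3 to 10 kb, 45.9% at 10 to 30 kb, 41.6% at 30 to 100 kb, 37.5% at 100 to 200 kb, 40.3% at 200 to 500 kb and 36.9% above 500 kb. The usual isolated peak was thus a domain of at least 5 kb. The 443 long isolated peaks had a median width of 15.4 kb, a median fold of 5.55 (5.12 to 5.75) and a median pileup of 67.9.

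**Figure D3:**
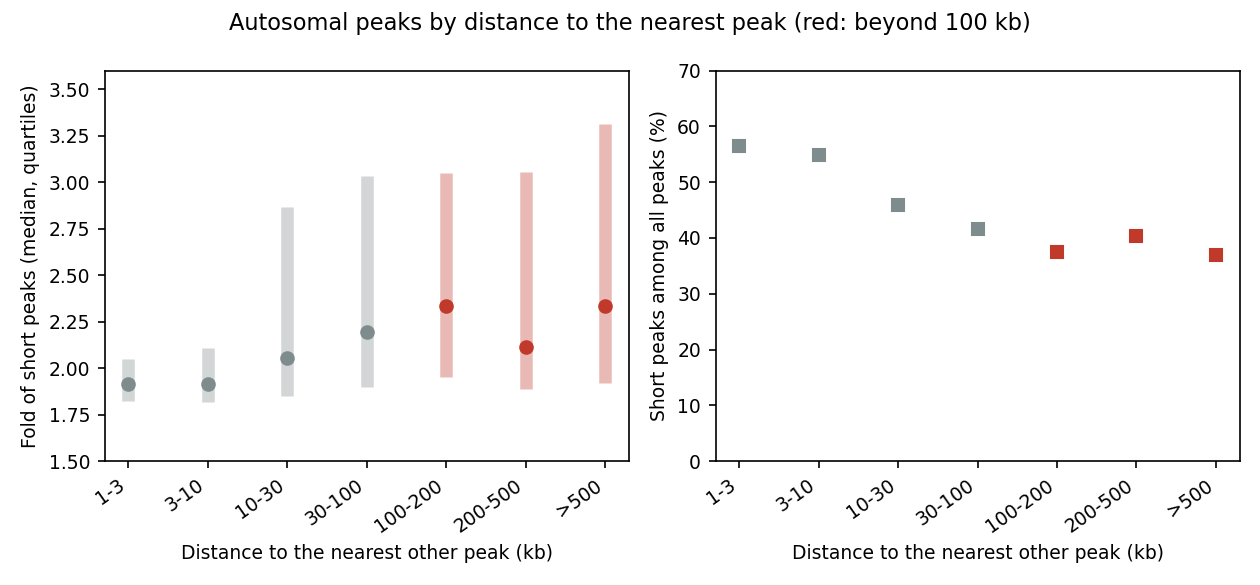
Fold of short autosomal peaks (left, points are medians and bars run between the quartiles) and share of short peaks among all autosomal peaks (right) by distance to the nearest other peak in kb, with the isolated classes in red. The median fold is 1.91 within 3 kb, 2.19 at 30 to 100 kb and 2.33 at 100 to 200 kb.

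The values on each side of the limits of the rule were these. The 3 isolated short peaks with the closest neighbours, 100.04, 100.1 and 101.1 kb away, had folds of 2.07, 2.44 and 2.13. The 3 short peaks just outside, with neighbours at 98.9, 99.8 and 99.9 kb, had folds of 4.61, 2.003 and 1.89. The 3 widest isolated short peaks, of 4908, 4949 and 4960 bp, had folds of 10.9, 2.43 and 4.56. The 3 isolated peaks just too wide, of 5056, 5067 and 5078 bp, had folds of 3.47, 5.68 and 5.57. Of the other 2 of the 5 widest, both 4904 bp wide, the peak on chromosome 5 named above had a fold of 1.95 and the one on chromosome 11 between 102553958 and 102558861 a fold of 3.50.

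The 5 narrowest isolated short peaks were weakly marked. After the 292 bp peak on chromosome 11 came peaks of 304 bp on chromosome 10 between 5282615 and 5282918, of 318 bp on chromosome 12 between 116862040 and 116862357, of 326 bp on chromosome 17 between 87169812 and 87170137 and of 347 bp on chromosome 16 between 95792675 and 95793021. Their folds were 1.87, 1.97, 1.99 and 2.03 in that order. Their pileups ran from 20.99 to 22.4.

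The distance to the nearest peak ran from 100.04 to 3623 kb. Its median was 187.8 kb, and its quartiles were 132.1 and 341.4 kb. For the 270 isolated short peaks with a neighbour on both sides, the wider gap was a median 2.26 times the narrower one, with quartiles of 1.38 and 4.84. The 2 gaps were thus mostly unequal, as they are for most positions between 2 neighbours, and random placement was not compared. In 31 of them both gaps exceeded 500 kb and in 11 both exceeded 1 Mb. The nearest peak with a fold of at least 4 was a median 262.9 kb away, and 19 isolated short peaks had none within 1 Mb. Together the 276 peaks covered 626.2 kb, or 0.288% of the marked sequence of the autosomes.

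The most remote isolated short peak lay on chromosome 1, between 103797000 and 103798815. Its width was 1.82 kb, its fold 2.23 and its pileup 24.8, and no other peak was called for 3767 kb before it and 3623 kb after it. Another on chromosome 1, between 148652019 and 148652642, had gaps of 2029 and 3069 kb and a fold of 1.75. The third, on chromosome 7 between 11078219 and 11080507, had gaps of 3827 and 1926 kb and was the best marked of these 5, with a −log10 q of 8.67 and a fold of 3.04. The others were on chromosome 14 between 11284290 and 11285180 (fold 1.93, nearest peak at 1640 kb) and on chromosome 8 between 105210586 and 105213044 (fold 2.14, nearest peak at 1556 kb). None of the 5 reached a fold of 4.

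Of the 5 isolated short peaks with the longest span between their neighbours, chosen after their values were seen, 1 reached a fold of 4. The 2 longest spans were around a peak on chromosome 3 between 50243255 and 50247243, with 8694 kb before it and 767.8 kb after it, and around a peak on chromosome 4 between 74920567 and 74924141, with 935.8 kb before it and 7534 kb after it. Their folds were 3.27 and 4.81, with pileups of 42.6 and 57.3. The next 3, on chromosomes 8, 1 and 12, had folds of 2.14, 2.23 and 1.77. The median span between the neighbours of an isolated short peak was 879.6 kb, and 52 spans exceeded 2 Mb.

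**Figure D4:**
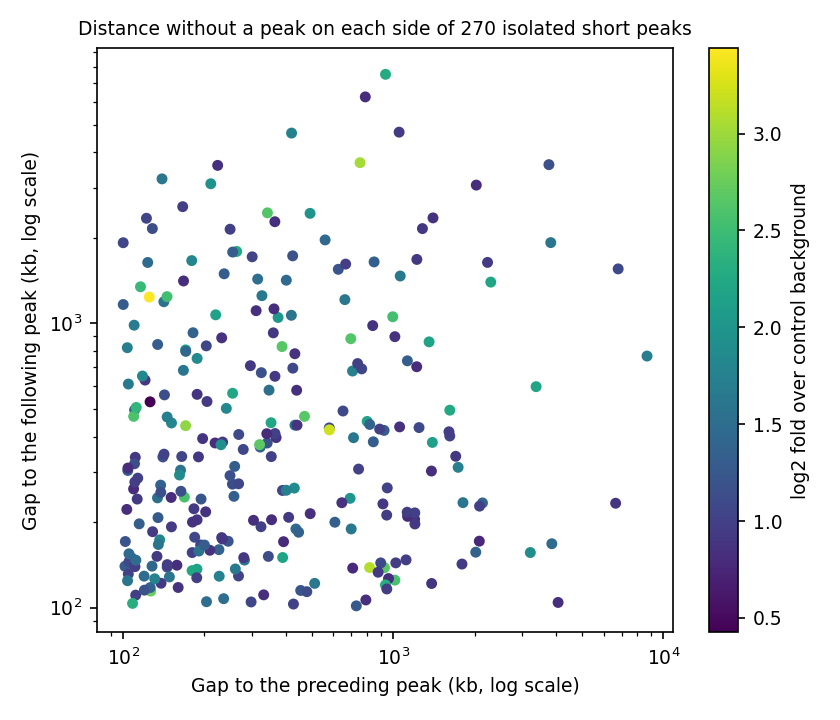
Gap to the preceding peak against gap to the following peak, both in kb on log axes, with 1 point per isolated short peak that has both neighbours (n = 270), coloured by log2 fold. High folds occur beside short and long gaps, and the rho between distance to the nearest peak and fold is 0.0013.

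The nearest peaks of isolated short peaks were more often wide and strong than those of other short peaks. The other short peaks were not split by distance here, and 5086 of the 9420 had their nearest peak within 3 kb. Those at 30 to 100 kb, the most like the isolated ones, were not compared in this respect. The nearest peak was at least 5 kb wide for 147 of 276 isolated short peaks (53.3%, 47.2% to 59.3%), against 42.3% (41.3% to 43.3%) of other short peaks. It had a fold of at least 4 for 117 (42.4%, 36.5% to 48.5%), against 25.01% (24.1% to 25.9%). The median fold of the nearest peak was 3.05 for isolated and 2.09 for other short peaks. Of all autosomal peaks, 52.6% were narrower than 5 kb and 29.5% reached a fold of 4, with a median fold of 2.28. By width the nearest peaks of isolated short peaks were thus near the whole list, and by fold they were above it. The nearest peak had the higher fold of the 2 for 65.9% of isolated and 66.5% of other short peaks, shares whose intervals overlapped.

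A minority of isolated short peaks followed one another directly. There were 23 runs of at least 2 consecutive isolated short peaks, holding 51 of the 276, and the other 225 stood alone between peaks of other kinds. In 20 of the runs there were 2 peaks, in 1 there were 3, and in 2 there were 4. The run of 4 on chromosome 2 reached between 174964677 and 177254246, with folds of 1.96, 2.03, 3.31 and 2.48. The run of 4 on chromosome 3 reached between 80845971 and 82863548, with folds of 1.805, 2.02, 2.11 and 6.17. In that run the strong peak, 4.09 kb wide with 76.7, was the only one wider than 2 kb. On chromosome 4, the peak of fold 6.41 named above was followed 374.5 kb later by one of 4.05, between 25204085 and 25208626. That run and the pair on chromosome 1 were the ones in which each peak reached a fold of 4.

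Isolated short peaks were found on all 19 autosomes, with 3 to 25 per chromosome and a median of 14. Chromosomes 1 and 3 held the most, 25 each, and chromosome 18 the fewest. As a share of short peaks they ran from 0.890% (0.184% to 2.58%) on chromosome 18 to 5.69% (3.72% to 8.29%) on chromosome 3, with an SD between autosomes of 1.18 percentage points. Per 100 Mb between the first and last peak, chromosome 19 led with 18.98 and chromosome 18 came last with 3.43. Chromosome 11, with 8 isolated short peaks, had the smallest share of its span in gaps of over 100 kb, 68.9%, and chromosome 3 the largest, 85.6%. Since gaps of over 100 kb are part of the rule, this is a description of where such peaks could be counted. Chromosome 18 had 83.5% of its span in such gaps and 3 isolated short peaks, and the reason for its low number was not tested.

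Well marked isolated short peaks were most numerous on chromosomes 4 and 12, with 5 each, followed by chromosome 13 with 4. On chromosome 3, 11 of the 25 stayed under a fold of 2 and 3 reached a fold of 4. On chromosome 2 only 1 of 16 had a fold under 2, and on chromosome 4 only 2 of 17. The median fold per autosome lay between 1.88 on chromosome 15 and 3.04 on chromosome 11, which rest on 7 and 8 peaks.

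**Figure D5:**
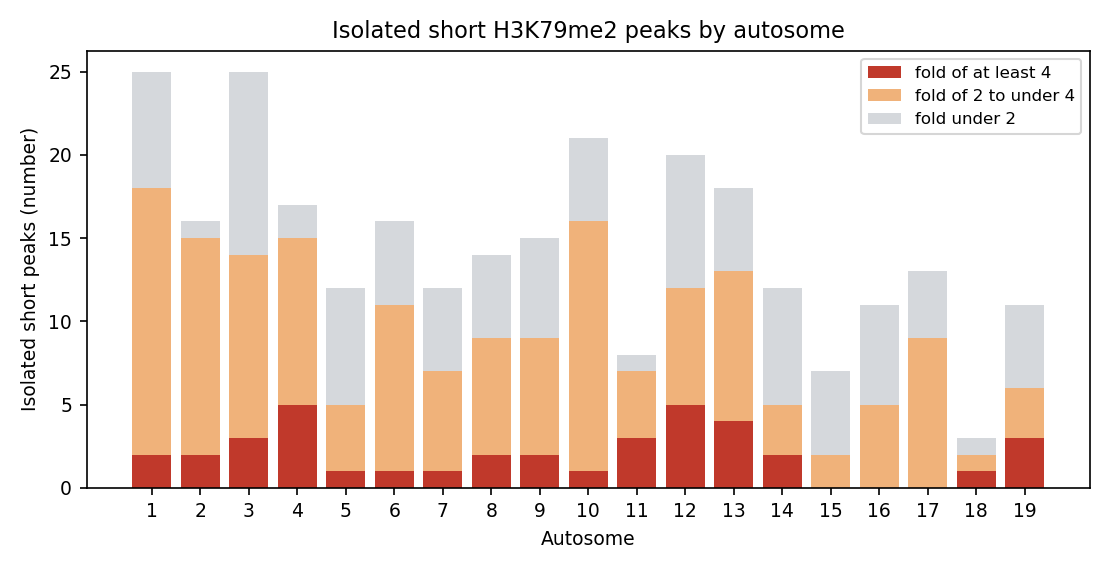
Number of isolated short peaks on each autosome, stacked by fold (at least 4, 2 to under 4, under 2). Chromosomes 1 and 3 have 25 each and chromosome 18 has 3, and no peak with a fold of at least 4 lies on chromosomes 15, 16 and 17.

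The outermost peaks of chromosomes were among the isolated short peaks 6 times in 38 autosomal ends. They were the first peaks of chromosomes 5 and 7 and the last of chromosomes 4, 5, 6 and 7, judged on 1 neighbour only. Their folds ran from 1.88 to 3.75. The highest of these was the last peak of chromosome 5, between 152450687 and 152453642, with a pileup of 47.5 and 271.6 kb free of peaks before it. With these 6 left out, the median fold of the other 270 was 2.23.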

How the data were processed

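Chromatin precipitated for H3K79me2 (3 libraries) and input (3 libraries) was grouped by sample title. The submitters' processing notes list MACS2 and GSNAP among the tools and mm9 as the build. The calling mode, the settings and the inputs used as control are not given in the sources used here. Columns of the deposited table, per the file header, are each peak's position, a pileup (the authors' coverage signal, whose scaling is not given), a fold (the authors' ratio to the control background), and −log10 p and −log10 q (the authors' deposited p-value and q-value of the pooled comparison). Pileup and fold may be averages over a peak. The −log10 p was not used.

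Gaps were computed as next start minus previous end minus 1. The control background was computed as (pileup + 1) / fold − 1, on the assumption that 1 is added to both before division. Regions named are the 10 with the highest fold, 5 each with the highest −log10 q, the highest pileup, the lowest fold, the largest and smallest width and the farthest nearest peak, the autosomes with the most and fewest, and 3 on each side of each limit. Others were chosen after their values were seen, as were 3 of the 12 alternatives. Peaks, lists and thresholds were chosen with earlier results of these data known. The computations were tested on simulated data. Intervals were computed with scipy 1.17.1 and tables with pandas 2.3.3, in Python 3.11.15.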

Additional observations from a re-analysis of the deposited data

How the results depend on the processing

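No paired analysis was possible because each peak has 1 value over the combined libraries, and leaving out a replicate was not possible for the same reason. Overlap with genes and CpG-rich stretches were not run, since no mm9 genome was used. Filters on the peaks were put on the other short peaks too. The number of 276 was 567 with a limit of 50 kb, 129 with 200 kb, 132 below 2 kb and 113 where each had to reach a −log10 q of 5 itself. The median fold of 2.24 was 1.95 below 2 kb, 2.80 below 10 kb, 3.41 and 2.52 in lists limited to a −log10 q of at least 5 and 2, and 2.66 and 3.31 where isolated short peaks had to reach a −log10 q of 2 or 5 themselves. In the same order the median width of 2091 bp was 947, 3468, 3286, 2765, 2689 and 3232 bp. The difference in median fold of 0.309 was 0.0851 below 2 kb, 0.807 below 10 kb and 0.00896 in the list limited to 5, and turned to −0.0907 where peaks of both kinds had to reach 5. The share at a fold of 4, 13.8%, was 0% below 2 kb, 29.7% below 10 kb, 34.9% in the list limited to 5 and 19% and 33.6% where they had to reach 2 and 5. The share at the lowest background, 15.9%, was 22.5% with 200 kb, 27.3% below 2 kb, 11.6% below 10 kb, 2.65% and 10.3% in the lists limited to 5 and 2, 9% and 2.65% where they had to reach 2 and 5, 21.7% with X and Y, and 42.4% within 0.5 of the lowest. The difference kept its sign in 10 of the 11 alternatives run for it, though the intervals of both alternatives at 5 include 0. These intervals are those of the isolated median, with the median of the other short peaks taken as fixed. They therefore leave out the counting error of the other short peaks. A limit on q removes peaks of low fold from both groups. The cause of the turn was not tested. Of 67 values 33 stayed within their limits. The limit was a fixed ratio to the reported number for counts and the reported interval for other values. Changed limits on width or q select on width and fold themselves, so the tally is not a measure of robustness. Marking under a pileup of 19 was not detectable here.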

Other observations

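The X chromosome, which the rule leaves out, held 24 peaks that met the limits of width and spacing, among 326 short peaks (7.36%, Clopper-Pearson 4.77% to 10.8%). That share lay above the highest autosomal one, 5.69% on chromosome 3, whose interval of 3.72% to 8.29% overlaps it. Per 100 Mb of span X had 15.1 such peaks, inside the autosomal range of 3.43 to 18.98. Their median fold was 2.69, with 8 of 24 at a fold of at least 4, and 21 of 24 sat at the lowest control background in the list. In the whole list 5571 of 18992 peaks reached a fold of 4 and 3592 sat at that background. On the autosomes these were 5437 and 3023 of 18418 peaks. Nearly all peaks of X and Y thus sat at the lowest background, not the isolated short ones in particular. For that reason these folds and those of the autosomes are not alike. The strongest lay on X from 163644306 to 163648047, with a fold of 6.73 and a pileup of 78.5. The next, from 69062051 to 69065935, had a fold of 6.25 and 71.0. None of the 6 short peaks of Y was isolated.

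Among all autosomal peaks with more than 1 Mb free of peaks on both sides there were 23, of which 11 were short. After the peak on chromosome 15, the highest control backgrounds under isolated short peaks were 18.2 on chromosome 10 from 7113644 to 7114312, 16.1 on chromosome 17 from 55850495 to 55851508, 16.02 on chromosome 8 from 19680178 to 19682656 and 15.4 on chromosome 1 from 145848404 to 145851098. Their folds were 2.87, 2.56, 2.41 and 2.35. These regions were chosen after their values were seen, and their sequence was not analysed here.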
